A study of Mus musculus with 2 samples.

Results

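The genes described here encode matricellular proteins of the extracellular matrix, with fibronectin beside them. They are the 8 rows of the gene tables with the symbols Ccn1, Ccn2, Sparc, Smoc2, Thbs1, Tnc, Postn and Fn1, out of 32285 genes listed for each section. Each symbol matched exactly 1 row. Matricellular proteins are secreted into the matrix but mostly do not build its fibres. They bind integrins, growth factors, proteases and collagens, and so tune how cells attach, migrate and deposit matrix. Most are at low levels in healthy adult kidney and are known to be made after injury and during scarring, by fibroblasts, vessel wall cells and damaged epithelium. Fibronectin is a structural glycoprotein whose fibrils serve as a scaffold for collagens and for several of the others.

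Levels come from Visium spatial transcriptomics (10x Genomics), in which a tissue section lies on a slide with a grid of barcoded spots and each spot captures the polyadenylated RNA above it. Since a spot is wider than a cell, its RNA can come from neighbouring cells of several types. Both sections were 10 µm cryosections of C57BL/6 mouse kidneys labelled as obstructed, that is, with the ureter of 1 kidney tied off (unilateral ureteral obstruction, UUO), a surgical model of kidney fibrosis, and were harvested on day 7 after surgery. One section came from a mouse treated with SH045, larixyl N-methylcarbamate, which blocks the calcium-conducting channel TRPC6, and 1 from a mouse treated with vehicle, so that each group held 1 section. The wider study used 6 mice and profiled 9 kidneys by single-cell sequencing, including unobstructed contralateral kidneys, which are not analysed here. The sources used here give neither the dose nor the age, sex or any genetic modification of the mice.

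The 2 sections differed in depth and in markers of injury. With SH045, 790 spots gave 22388623 UMIs (distinct captured RNA molecules), a median of 27733 per spot, while 676 spots of the section labelled Vehicle gave 4327613 UMIs, a median of 4932.5 per spot and a 5.62-fold gap in depth. The share of mitochondrially encoded UMIs was 4.24% in the former and 10.4% in the latter. Havcr1, the kidney injury molecule of damaged proximal tubule, was at 992 CPM (counts scaled to 1000000 UMIs of the section) with SH045 (22219 UMIs) but at 1.62 CPM (7 UMIs) in the section labelled Vehicle, against the UUO label of the latter. The injured tubule list as a whole summed to 11473 CPM in the SH045 section and to 967 CPM in the section labelled Vehicle. None of its 15 genes was at 0 in the section labelled Vehicle, and all 15 were 1.5-fold or more higher with SH045. Kidney markers were present in both, with the proximal tubule list at 14863 and 53968 CPM. Of the spot barcodes in the 2 matrices, 335 were shared, and a barcode stands for the same grid position in both position tables. Each comparison between the sections below is therefore one between 2 libraries that differ in depth and in injury markers as well as in the labelled treatment, and these cannot be told apart.

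The members lie on separate chromosomes, except Ccn1 and Postn, which are both on chromosome 3. In the mm10 assembly (RefSeq GRCm38.p6) Ccn1 spans chr3:145646971-145649985 and Postn chr3:54359267-54391041. Ccn2 spans chr10:24595442-24598683, Sparc chr11:55394159-55420080, Smoc2 chr17:14279490-14404790, Thbs1 chr2:118111876-118127133, Tnc chr4:63959785-64047015 and Fn1 chr1:71585473-71653280. Values are given per gene, so no exon or splice form is resolved, and the included and spliced-out extra domains of Fn1 and Tnc cannot be separated.

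Promoter windows of 300 bases, from 250 bases before to 50 bases after an annotated start, are shown because the members were high in the same section and because several are textbook targets of the TEAD and SMAD transcription factors. RefSeq gave windows for 4 of the 8 genes, Ccn1, Sparc, Tnc and Postn, on GRCm38.p6, and the outermost start of each is printed, 5′ to 3′ on the gene's own strand. The windows are chr3:145649936-145650235 on the minus strand for Ccn1, chr11:55420031-55420330 on the minus strand for Sparc, chr4:64046966-64047265 on the minus strand for Tnc and chr3:54359017-54359316 on the plus strand for Postn. Capitals mark matches, on either strand, to GGAATG (the TEAD core, which reads CATTCC on the other strand) or to CAGAC (the SMAD motif, GTCTG on the other strand).
Ccn1: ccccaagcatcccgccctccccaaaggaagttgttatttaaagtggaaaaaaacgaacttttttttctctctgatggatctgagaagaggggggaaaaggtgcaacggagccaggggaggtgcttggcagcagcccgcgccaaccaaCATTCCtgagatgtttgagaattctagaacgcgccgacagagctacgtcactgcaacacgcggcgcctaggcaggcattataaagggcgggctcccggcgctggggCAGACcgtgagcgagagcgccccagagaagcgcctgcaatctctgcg
Sparc: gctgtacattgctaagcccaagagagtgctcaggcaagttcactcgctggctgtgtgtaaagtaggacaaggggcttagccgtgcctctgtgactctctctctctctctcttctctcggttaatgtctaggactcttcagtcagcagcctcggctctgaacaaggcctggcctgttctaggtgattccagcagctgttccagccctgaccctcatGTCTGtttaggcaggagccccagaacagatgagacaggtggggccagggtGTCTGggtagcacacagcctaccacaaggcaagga
Tnc: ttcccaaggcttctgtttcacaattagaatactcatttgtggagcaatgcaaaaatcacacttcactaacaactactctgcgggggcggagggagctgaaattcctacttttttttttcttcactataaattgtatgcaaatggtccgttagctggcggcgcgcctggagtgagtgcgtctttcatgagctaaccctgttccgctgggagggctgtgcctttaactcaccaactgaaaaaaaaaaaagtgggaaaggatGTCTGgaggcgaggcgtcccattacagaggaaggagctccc
Postn: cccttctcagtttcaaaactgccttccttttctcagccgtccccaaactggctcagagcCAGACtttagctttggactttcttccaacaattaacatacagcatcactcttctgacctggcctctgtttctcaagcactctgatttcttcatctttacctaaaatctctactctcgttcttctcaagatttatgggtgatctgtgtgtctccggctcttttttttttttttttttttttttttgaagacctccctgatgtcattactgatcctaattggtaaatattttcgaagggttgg
Ccn1 held the only TEAD match among the 4 genes, 103 bases before its start, and 14.7% of all 32851 promoter windows searched held at least 1. The SMAD motif occurred in 49.6% of all windows. It was present once in the Ccn1 window, 3 bases after the start, 2 times in the Sparc window, 35 bases before and 15 bases after the start, once in the Tnc window, 9 bases after the start, and once in the Postn window, 191 bases before the start. The second annotated Tnc start, whose window overlaps the first, held 2 SMAD motifs, and the second Postn start held none. No match to the CArG box of the serum response factor, present in 1.63% of windows, or to TGANTCA of AP-1, present in 7.81%, was found in these windows. A match describes the letters and not binding, and none of the motifs overlapped another.

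All 8 genes had a higher level in the SH045 section than in the section labelled Vehicle, by 10.5-fold (Sparc) to 135-fold (Smoc2). All 8 passed the 1.5-fold mark that 53.2% of the 10463 genes measured, those reaching 10 CPM in 1 of the sections or both, also passed. Since so many genes did, the larger marks tell more: all 8 were at least 5-fold higher, as 9.17% of genes were, and all 8 at least 10-fold, as 4.15% were. None of the 8 was lower by 1.5-fold, as 12% of genes were. Smoc2, Tnc and Postn reached 10 CPM in the SH045 section alone, which favours a higher call and excludes a lower one. The shares of all genes used the same filter. Relative to the median of all genes, the 8 were again higher by at least 1.5-fold, as 25.4% of genes were, and 0 of them lower, as 25.7% were. On the log2(CPM + 1) scale the median ratio of the members was 4.73, and that of all genes 0.63. Their levels summed to 3720 CPM in the SH045 section and to 214 CPM in the section labelled Vehicle. With 1 section per group no test can be made, spots are not replicates, and the 95% intervals given below cover counting error only. In a spot as in bulk tissue, more cells of a type and more RNA per cell cannot be told apart.

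Ccn1 (also known as Cyr61) and Ccn2 (also known as Ctgf) are CCN-family proteins, immediate early genes induced by growth factors and mechanical load through YAP and TEAD, and both bind integrins. Ccn1 was at 457 CPM (95% interval 448 to 466, 10230 UMIs) in the SH045 section but at 13.6 CPM (10.4 to 17.6, 59 UMIs) in the section labelled Vehicle. Its 4 position blocks, used to show the spread within a section, ran from 378 to 538 CPM and from 9.30 to 25.6 CPM, with no overlap, and its fold was 33.5 (26.0 to 44.1). Ccn2 was at 670 CPM (659 to 681, 15002 UMIs) against 37.7 CPM (32.1 to 43.9, 163 UMIs). The blocks of Ccn2 lay between 561 and 846 CPM and between 28.9 and 45.1 CPM, again apart, and its fold was 17.8 (15.2 to 20.9). The intervals of the 2 folds do not overlap, so the CCN genes differed unequally between the sections beyond counting error.

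Sparc, which chaperones collagen in the matrix, and Smoc2, a relative with the same kind of calcium-binding module, lay at the ends of the range of folds. Sparc was at 1292 CPM (1277 to 1307, 28919 UMIs) and at 123 CPM (113 to 134, 534 UMIs), a fold of 10.5 (9.61 to 11.4). It is the member with most UMIs in the section labelled Vehicle. Smoc2 was at 156 CPM (151 to 161, 3489 UMIs) against 1.16 CPM (0.375 to 2.70), where it rested on 5 UMIs. Its fold of 135 had an interval of 57.7 to 416, which still lay above that of Sparc. Blocks ran from 987 to 1870 CPM and from 111 to 152 CPM for Sparc, and from 125 to 208 CPM and from 0 to 2.64 CPM for Smoc2, with no overlap between sections for either gene.

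Thbs1, thrombospondin 1, can release active TGF-beta from its latent form and binds the receptors CD36 and CD47. It was at 349 CPM (341 to 357, 7816 UMIs) in the SH045 section but at 10.6 CPM (7.78 to 14.2, 46 UMIs) in the section labelled Vehicle. The blocks, 298 to 485 CPM against 5.28 to 13.6 CPM, lay apart, and the fold was 32.8 (24.6 to 44.9). Platelets also carry Thbs1. Their list of 6 markers summed to 34.0 and 12.7 CPM, and of the 2 measured 1 was higher in the SH045 section, Pf4 with 520 UMIs against 4, and 1 lower, Itga2b at 5.49 against 11.8 CPM. Gp9 and Treml1 were near or at 0 in both sections, with 2 and 0 UMIs in the SH045 section. The part of platelets in the Thbs1 level was not tested.

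Tnc, tenascin C, loosens cell adhesion in remodelling tissue, and Postn, periostin, binds integrins and helps to crosslink collagen. Tnc was at 112 CPM (107 to 116, 2500 UMIs) against 3.24 CPM (1.77 to 5.43, 14 UMIs), a fold of 34.5 (20.5 to 63.2). It had the widest spread of the 8 within the SH045 section, with blocks from 44.4 to 265 CPM, a ratio of 5.98, and from 0.881 to 4.81 CPM in the section labelled Vehicle. Postn had the fewest UMIs of the members, at 13.2 CPM (11.8 to 14.8, 296 UMIs) in the SH045 section. A single Postn UMI in the section labelled Vehicle gave 0.231 CPM (0.00585 to 1.29) and a ratio of 57.2 that counting leaves anywhere between 10.2 and 2267. Its blocks were from 5.92 to 24.2 CPM and from 0 to 0.802 CPM.

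Fn1, fibronectin, was at 672 CPM (661 to 683, 15043 UMIs) in the SH045 section but at 24.3 CPM (19.8 to 29.4, 105 UMIs) in the section labelled Vehicle. The fold was 27.7 (22.9 to 33.9), and the blocks, 473 to 1244 CPM against 12.8 to 40.5 CPM, lay apart. Counting all members, 8 of 8 had every SH045 block above every block of the other section, as did 56.7% of all genes tested, so separation by block is common in this pair of libraries.

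**Figure D1:**
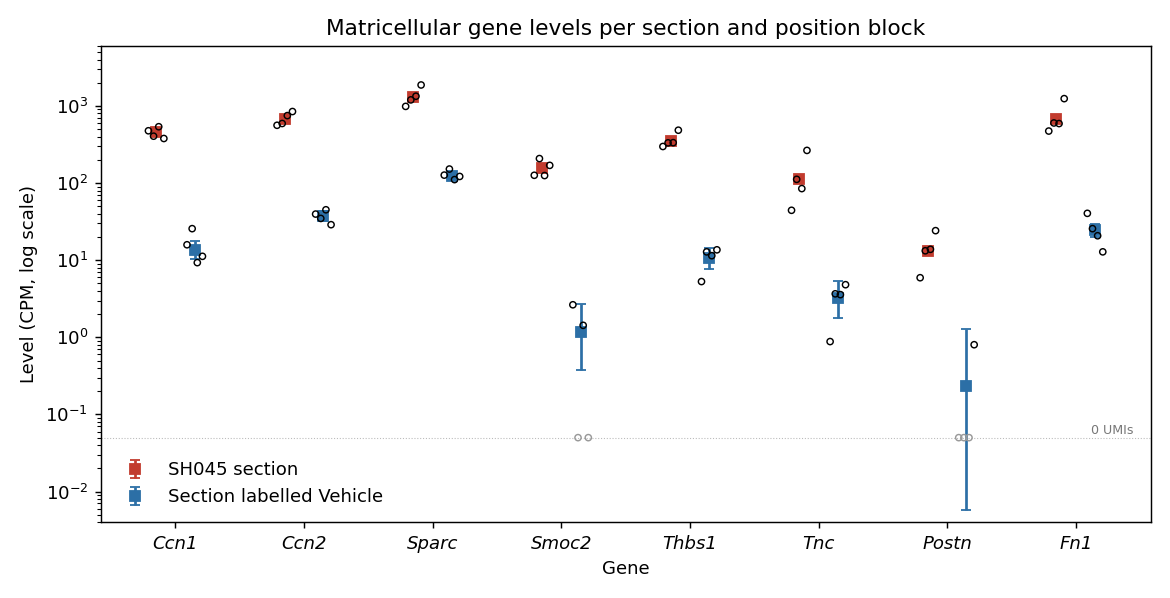
Level of each matricellular gene in CPM on a log axis, for the SH045 section (red squares) and the section labelled Vehicle (blue squares), with 95% counting intervals as bars and the 4 position blocks of each section as open circles; circles on the dotted line are blocks with 0 UMIs. Every red square lies above the blue one of the same gene, from 1292 against 123 CPM for Sparc to 13.2 against 0.231 CPM for Postn.

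The share of spots with at least 1 UMI was compared at 1 depth, 2500 UMIs drawn from each spot, which 788 SH045 and 561 Vehicle spots reached. Sparc was found in 93.3% of the SH045 spots (exact 95% interval 91.3 to 94.9) and 25.3% of the Vehicle spots (21.8 to 29.1). Fn1 was found in 78.3% and 5.35%, Ccn2 in 75.9% and 7.49%, and Ccn1 in 65.4% and 2.85%. Shares at the lower end were 54.2% and 2.85% for Thbs1, 34.1% and 0.178% for Smoc2, and 25% and 0.535% for Tnc. Postn was found in 3.17% of the SH045 spots (2.06 to 4.65) and in none of 561, which allows a share of up to 0.655%. Unthinned, the shares ran from 26.5% (Postn) to 99.9% (Sparc) in the SH045 section and from 0.148% (Postn) to 45.3% (Sparc) in the other. At the same thinned depth the endothelial gene Pecam1 was found in 19.3% and 6.77% of spots.

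Within the SH045 section, where the counts allow a map, the members differed in how evenly they were spread. The 79 spots of highest level, out of 788, held 20.5% of the summed spot levels of Sparc, 21.1% of Ccn1, 22.6% of Thbs1, 22.8% of Ccn2 and 24.9% of Fn1. They held more of the other 3 genes: 36.7% of Tnc, 39.0% of Smoc2 and 62.7% of Postn. Sparc ran from 266 CPM in its lowest spot over a median of 1267 to 5571 CPM in its highest, and Fn1 from 108 over 611 to 5808 CPM. Smoc2 was absent from its lowest spots, had a median of 111 CPM and reached 1479 CPM. Tnc, Smoc2 and Postn also have the fewest UMIs per spot, and the part of sparse counts in their shares was not tested. The likeness of neighbouring spots was described by Moran's I, which is near 0 for a gene scattered over the spots and near 1 for one in a smooth patch. It was 0.25 for Smoc2, 0.24 for Fn1, 0.21 for Sparc, 0.19 for Tnc and 0.11 for Thbs1. Ccn1 and Ccn2 were each at 0.08 and Postn at -0.0028, beside a median of 0.01 over 3945 genes, of which 1 in 10 lay above 0.08. These values used counts thinned to 2500 UMIs per spot, where Postn had a UMI in 25 of 788 spots. Its value cannot tell scatter from sparse counts. The 3945 genes were not matched to the members in level.

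**Figure D2:**
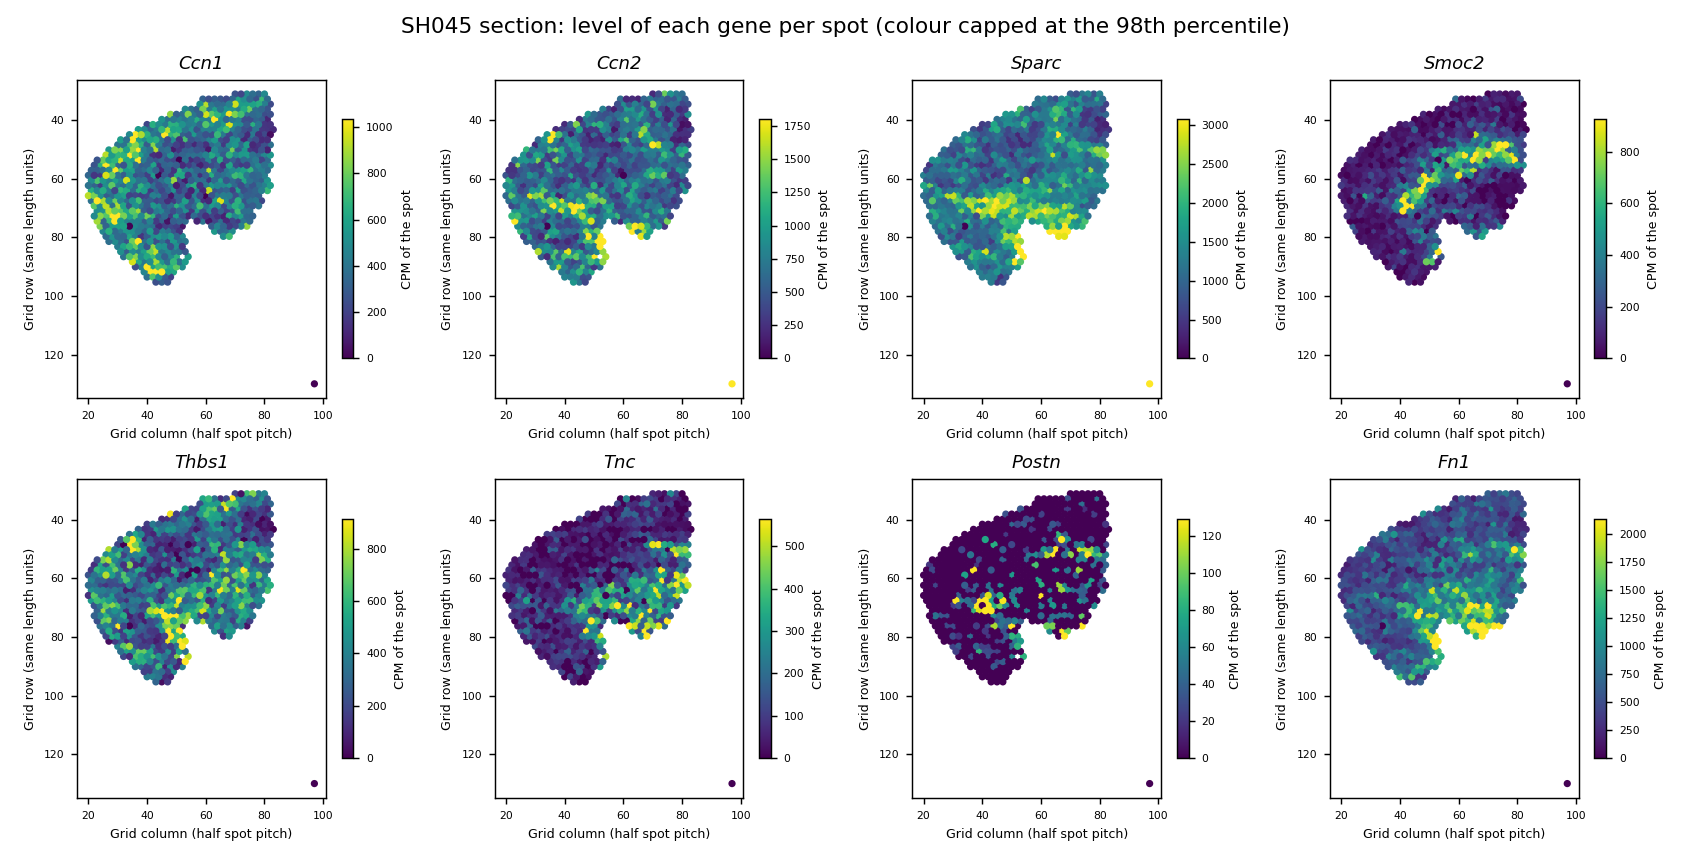
Level of each gene in every spot of the SH045 section, in CPM of the spot, drawn on the grid of the slide, with the colour capped at the 98th percentile of each gene; 1 spot of 392 UMIs lies apart from the tissue. Smoc2 forms a curved band inside the section, while Fn1, Tnc and Sparc are highest toward the lower right and Ccn1 is lower deep inside the section than nearer its edge.

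Over zones of distance from the tissue edge, counted in grid steps, Smoc2 differed most. In the SH045 section Smoc2 was at 106 CPM in the outer zone (0 to 2 steps, 341 spots), at 130 CPM in the middle zone (3 to 5 steps, 255 spots) and at 316 CPM in the deep zone (6 to 10 steps, 194 spots). The deep zone was 3.00 times the outer zone (2.77 to 3.25). Postn was also highest in the deep zone, with 11.4, 11.0 and 21.2 CPM from the outer to the deep zone and a ratio of 1.86 (1.41 to 2.46). The other 6 stayed within 1.5-fold, among them Tnc, at 123, 109 and 88.3 CPM, with a ratio of 0.715 (0.637 to 0.801), and Ccn1, at 468, 486 and 383 CPM, with 0.820 (0.776 to 0.867). Thus 2 of 8 members were at least 1.5-fold higher in the deep zone, as 3.47% of 10468 genes were, and 0 of 8 were lower, as 3.48% were. In the section labelled Vehicle, whose deposited tissue flag does not match its matrix, Sparc, Ccn2 and Fn1 had the most UMIs by zone. There Sparc was at 119 CPM in the outer and 139 CPM in the deep zone, Ccn2 at 36.9 and 38.2 CPM and Fn1 at 21.5 and 34.8 CPM. Of the 5 members that reached 10 CPM in the outer or the deep zone, 2 were at least 1.5-fold higher in the deep zone, as 18.7% of genes were, and 0 lower, as 4.17% were. They were Fn1, with a ratio of 1.61 (1.02 to 2.54), and Ccn1, at 11.3 and 17.8 CPM with a ratio of 1.58 (0.826 to 3.01), an interval that includes 1, where the SH045 section had 0.820.

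To see which tissue carried the members, spots of each section were grouped by expression into regions with the members and the other matricellular genes left out of the genes used. Regions are called by their leading genes and are not cell types. The SH045 section gave 9 regions of 39 to 166 spots. Tnc varied most over them, with its highest region at 10.6 times its lowest, followed by Smoc2 at 8.38, Postn at 6.92, Fn1 at 4.54, Ccn2 at 3.68, Thbs1 at 3.63, Sparc at 3.41 and Ccn1 at 2.23. Postn rests on few UMIs, 13 to 73 per region, and its place in this order was not stable. It was 15.2 against 11.7 for Tnc at the finer clustering (resolution 1.0) and 12.04 against 10.2 with the members kept in the genes used.

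The region led by Col6a4, Thbs4 and Cpxm2 (80 spots, 73 of them in 1 position block) had the highest levels of Fn1, 1468 CPM (1408 to 1530), of Tnc, 312 CPM (285 to 341), and of Thbs1, 496 CPM (461 to 532). For Thbs1 this was not separable by counting from the Slc12a3-led region, at 463 CPM (445 to 482), or the Tnn-led one, at 461 CPM (429 to 495). Sparc was at 2229 CPM (2156 to 2305) there. The summed fibroblast markers of this region were at 7278 CPM, against 3061 CPM in the whole section. The region led by Tnn and Igfbp2 (73 spots, 48 of them in the same block) had a like Tnc level of 301 CPM (275 to 328), with less Fn1, 864 CPM (820 to 911), and little Smoc2, 84.9 CPM (71.4 to 100). That block was also the one where Tnc, Fn1, Sparc, Ccn2, Thbs1 and Postn each had the highest of their 4 block levels, at 265, 1244, 1870, 846, 485 and 24.2 CPM.

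Smoc2 was highest in another place. In the region led by Fst, Ighg2c and Clca3a2 (95 spots, a median of 7 steps from the edge) it was at 468 CPM (438 to 500), next to 276 to 290 CPM in the regions led by Krt14 and by Nphs1. The Fst-led region also had the highest sum of thick ascending limb markers, 9989.5 CPM against 4037 CPM in the section, and its fibroblast markers summed to 3637 CPM. Ccn1, by contrast, was at 367 CPM there, under its section level. Smoc2 was lowest in the region led by Acmsd, Slc22a8 and Cyp2d26, at 55.9 CPM (46.6 to 66.5).

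Sparc and Ccn2 had their highest levels in the region led by Nphs1 and Clic3 (39 spots), where podocyte markers summed to 1694 CPM. Sparc was at 2335 CPM (2237 to 2436) there, not separable by counting from the Col6a4-led region, and Ccn2 at 1184 CPM (1114 to 1256), above its next region, the Krt14-led one at 890 CPM (852 to 930). The Nphs1-led region held fibroblast markers at 5655 CPM too. Its smooth muscle and pericyte markers summed to 2328 CPM and its macrophage markers to 2970 CPM, against 1026 and 2307 CPM in the section. Ccn1 differed from Ccn2: it was highest, at 604 CPM (583 to 626), in the region led by Slc12a3, Pgam2 and Il1f6, with 531 CPM (485 to 581) in the Nphs1-led one. Ccn2, Sparc, Thbs1, Tnc and Fn1 each had their 2 lowest levels in the regions led by Acmsd and by Slc22a7, where proximal tubule markers summed to 42600.1 and 43739 CPM against 14863 CPM in the section. Ccn1 was at 393 CPM in the Acmsd-led and at 271 CPM, its lowest, in the Slc22a7-led region. Postn was lowest, at 4.65 CPM, in the Ccl5-led region, and Smoc2 was at 201 CPM in the Slc22a7-led region.

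A finer clustering, with the resolution set from 0.6 to 1.0, split off a region of 17 spots led by Upk1b, Capn13 and Prss27, of which Upk1b is a urothelial gene. Fn1 was at 2247 CPM (2097 to 2405) in it and Postn at 61.9 CPM (39.2 to 92.9, 23 UMIs). The Fn1 level lay above every region of the coarser clustering beyond counting error. The interval of Postn overlapped that of its highest coarser region, the Krt14-led one, at 32.2 CPM (25.2 to 40.5). Tnc was at 369 CPM (309 to 436) and Ccn1 at 315 CPM (260 to 377). Ccn2 was at 1154 CPM (1048 to 1269) there, not separable by counting from the podocyte-led region of the same clustering, at 1175 CPM (1108 to 1245). Sparc was at 2182 CPM (2035 to 2338), and Thbs1 had its highest level of this clustering, 579 CPM (504 to 661), which overlapped that of the next region, 506 CPM (482 to 530).

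In the section labelled Vehicle, 5 regions were found, and most members had too few UMIs in them to be ordered. The regions of 187 and 155 spots were both led by mt-Atp8. Their mitochondrially encoded share was 20.7% and 18.1%, against 2.98% to 3.72% in the rest, so these regions divide the section by that share too. Sparc was highest, at 246 CPM (212 to 285), in the region led by Ccl21a, Nupr1 and Wt1 (141 spots), where podocyte markers summed to 716 CPM, and lowest, at 73.4 CPM (59.6 to 89.3), in the region led by Ggct, Pllp and AI314278. Ccn2 was also highest in the Ccl21a-led region, at 73.2 CPM (55.2 to 95.3), as were Fn1, at 51.9 CPM (36.9 to 71.0), and Thbs1, at 25.3 CPM (15.2 to 39.5, 19 UMIs). These intervals each overlapped that of another region. In the B830017H08Rik-led region Ccn2 was at 30.4 CPM (13.9 to 57.7) and Thbs1 at 16.9 CPM (5.48 to 39.4). Fn1 was at 28.2 CPM (19.9 to 38.7) in the Ggct-led one.

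**Figure D3:**
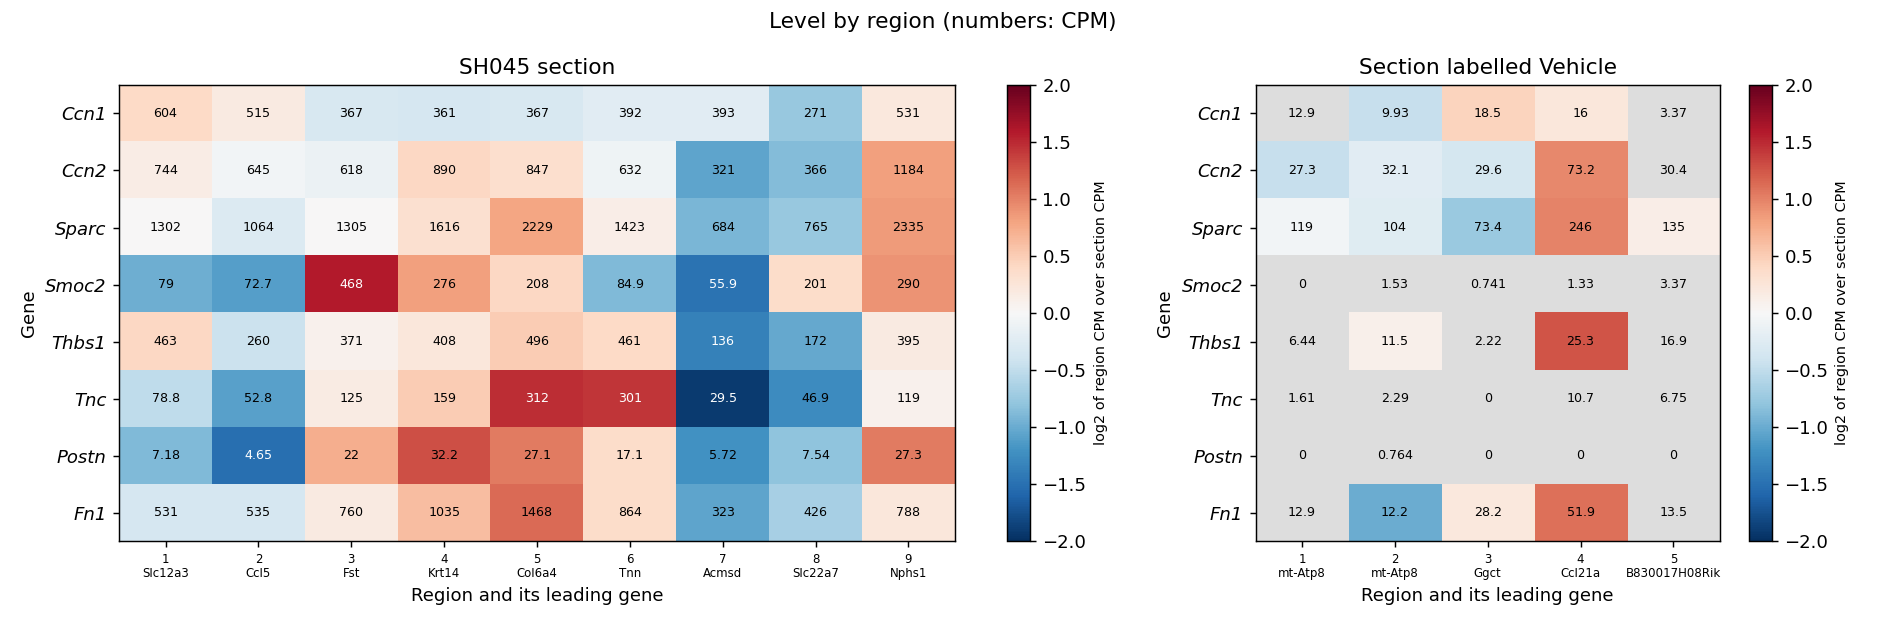
CPM of each gene by region, for the 9 regions of the SH045 section and the 5 of the section labelled Vehicle, each region named by its number and its leading gene; colour gives the log2 ratio of the region to its whole section, and grey marks values on fewer than 10 UMIs. Tnc is highest in SH045 regions 5 and 6, Smoc2 in region 3, Fn1 in region 5, and Sparc and Ccn2 in region 9.

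The regions led by podocyte genes were found in both sections and were compared with each other. At the finer clustering they held 41 SH045 and 24 Vehicle spots, with the podocyte gene Podxl at 640.3 CPM (591 to 692) and 1019 CPM (865 to 1193). The 2 regions were not matched in other markers. Fibroblast markers summed to 5652 CPM in the SH045 spots and 460 CPM in the Vehicle spots, macrophage markers to 2924 and 1019 CPM, smooth muscle and pericyte markers to 2309 and 868 CPM, and proximal tubule markers to 7453 and 26702 CPM. The part of these cells in the folds was not tested. Sparc was at 2319 CPM in the SH045 spots and at 625 CPM in the Vehicle spots, a fold of 3.71 (3.02 to 4.61) in place of 10.5 over the whole sections. For Ccn2 the levels were 1175 and 230 CPM, and the fold was 5.11 (3.65 to 7.37) in place of 17.8. Tnc was at 123 against 39.5 CPM (6 UMIs), a fold of 3.11 (1.39 to 8.63), Fn1 at 767 against 72.3 CPM, 10.6 (5.89 to 21.3), Thbs1 at 386 against 32.9 CPM, 11.7 (4.99 to 36.4), and Ccn1 at 557 against 32.9 CPM, 16.9 (7.21 to 52.3). Smoc2 and Postn had no UMI in the 24 Vehicle spots. Their SH045 levels were 14.4 and 1.45 times a floor of 3 counts in these spots, and the counting intervals of the folds began at 11.7 and 1.10. With that floor, 7 of 8 were at least 1.5-fold higher here, as 34.2% of genes were. Smoc2 and Postn reached 10 CPM in the SH045 spots alone, which favours a higher call. This comparison was chosen after the data were seen.

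Spots of the SH045 section were also ranked by the score of a marker list and split into 4 groups of 197, none of the members being in a score. The fibroblast list includes the collagen genes Col1a1, Col1a2 and Col3a1. From the lowest to the highest group by fibroblast score, Fn1 was at 443, 555, 684 and 1211 CPM and Tnc at 47.0, 78.0, 125 and 253 CPM. Sparc was at 887, 1151, 1417 and 2022 CPM, Ccn2 at 497, 641, 697 and 969 CPM, and Smoc2 at 96.8, 112, 174 and 297 CPM. Thbs1 went from 246 to 484 CPM and Postn from 5.31 to 35.5 CPM. Ccn1 alone showed no such order, with 447, 483, 486 and 400 CPM. The median depth of these groups went from 34554 down to 20625 UMIs per spot, so the spots richest in fibroblast markers were also the shallowest, and the part of depth was not tested.

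Of the 8 members, 7 were at least 1.5-fold higher in the group of highest than in that of lowest fibroblast score, as 20.2% of genes were, and 7 by the score for smooth muscle and pericytes, as 9.77% were. Ccn1 was the exception in both. By the injured tubule score 4 were higher, Tnc, Thbs1, Fn1 and Postn (12.4% of genes), by the endothelium score 4, Tnc, Smoc2, Postn and Sparc (8.09%), and by the macrophage score 3, Ccn2, Thbs1 and Fn1 (8.24%). The intervals of Postn by the injured tubule score overlapped, at 9.90 CPM (7.59 to 12.7, 62 UMIs) and 14.9 CPM (11.8 to 18.6, 78 UMIs). By this score, and by the fibroblast and the smooth muscle and pericyte scores, Postn reached 10 CPM in the highest but not the lowest group. That favours a higher call and excludes a lower one. No member was lower by 1.5-fold for any of the 5 scores, as 9.16%, 4.99%, 6.77%, 4.35% and 4.52% of genes were in the same order. Along the injured tubule score Thbs1 went from 234 to 458 CPM and Fn1 from 497 to 875 CPM, while Smoc2 was at 163 and 143 CPM and Ccn1 at 444 and 444 CPM. In the section labelled Vehicle the fibroblast, smooth muscle and pericyte, and macrophage lists summed to only 111, 168 and 266 CPM. At its median of 4932.5 UMIs per spot, many spots can hold no UMI of such a list and tie in score. The group of lowest score by these lists may then be an arbitrary part of the tied spots. The part of such ties in the calls was not tested. In this section 5 or 6 members reached 10 CPM in 1 or both of the groups compared. Of these, 2 of 5 were higher by the fibroblast score (14.1% of genes higher, 6.09% lower), 5 of 6 by the smooth muscle and pericyte score (20.2% and 6.09%) and 3 of 5 by the macrophage score (15.8% and 6.02%), with none lower. By the endothelium score 4 of 5 were higher and 1 lower (21.8% and 8.55% of genes), and by the injured tubule score 3 of 5 were higher and 1 lower (23% and 12.3%). The lower one was Ccn1 both times, at 18.2 CPM (11.1 to 28.2, 20 UMIs) in the group of lowest and 7.68 CPM (3.09 to 15.8, 7 UMIs) in that of highest endothelium score. By the injured tubule score it was at 19.9 CPM (12.5 to 30.2, 22 UMIs) and 7.20 CPM (2.89 to 14.8, 7 UMIs). The intervals overlapped both times. They overlapped for some higher calls too, such as Fn1 by the smooth muscle and pericyte score, on 24 and 30 UMIs. Sparc and Ccn2 lay apart by that score. Some members, Ccn1 among them, reached 10 CPM only in the group where they were higher, which favours a call. By the smooth muscle and pericyte score these were Thbs1, at 7.50 and 16.9 CPM, and Tnc, at 2.81 CPM (3 UMIs) and 10.1 CPM (9 UMIs). The shares of all genes used the same filter.

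**Figure D4:**
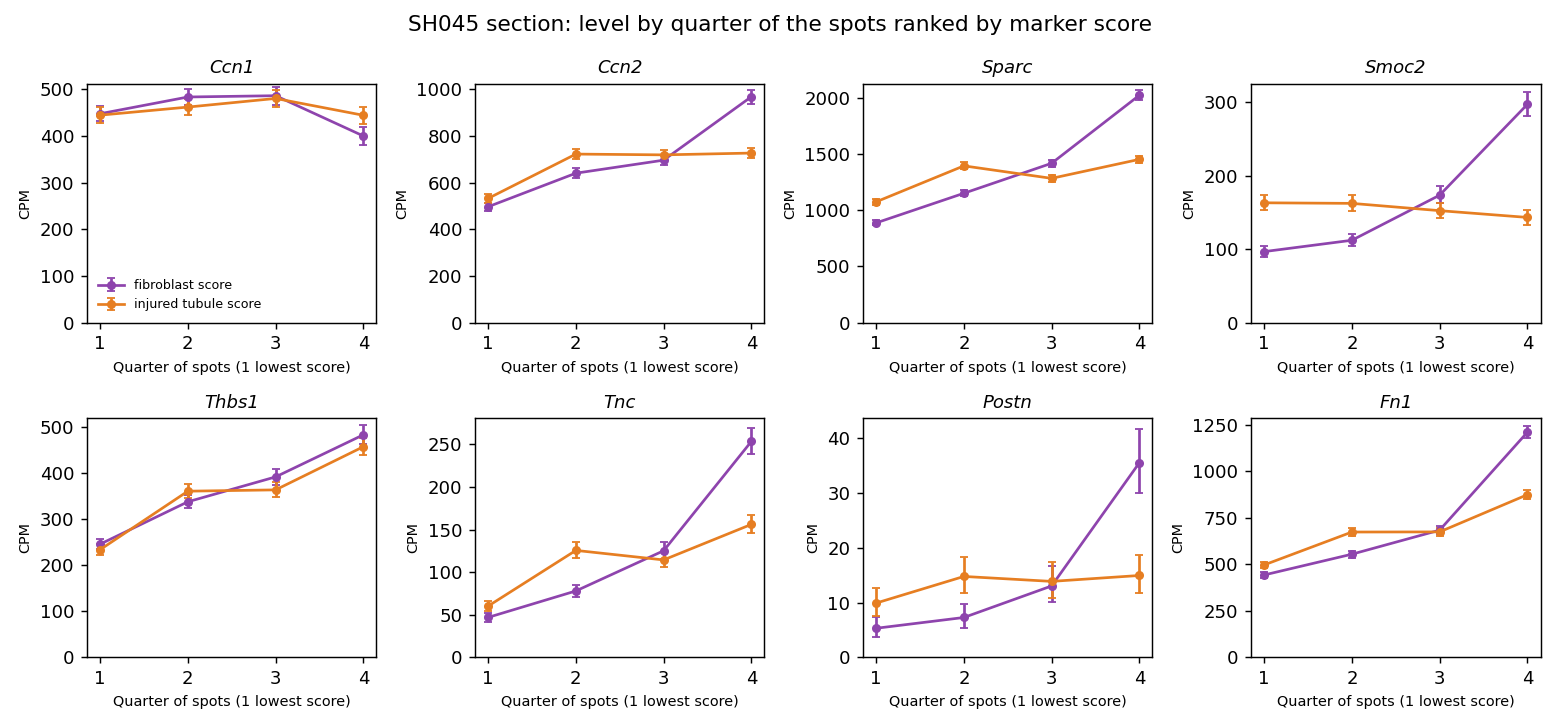
CPM of each gene in the SH045 section over 4 equal groups of spots ranked by fibroblast score (purple) or injured tubule score (orange), with 95% counting intervals. Fn1, Sparc, Tnc, Smoc2, Postn and Ccn2 climb along the fibroblast score, Thbs1 climbs to similar levels along both, from 246 to 484 and from 234 to 458 CPM, and Ccn1 climbs along neither.

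Pairs of members were then compared spot by spot, as a description, since the spots share 1 section and library. With 10000 UMIs per spot (768 spots) the Spearman correlation was 0.47 for Sparc with Fn1, 0.42 for Ccn2 with Sparc, 0.41 for Tnc with Fn1 and 0.40 for Sparc with Tnc. Over the 28 pairs the median was 0.19 at this depth and 0.07 at 2500 UMIs per spot, where counts are sparser. The values of Ccn1 ran from -0.11 (Smoc2) to 0.13 (Ccn2), although Ccn1 and Ccn2 are of 1 family and are known targets of the same pathway. Against the marker scores at 10000 UMIs, Sparc had 0.67 with the fibroblast score, Fn1 0.58, Tnc 0.53, Ccn2 0.41, Thbs1 0.36, Smoc2 0.33, Postn 0.26 and Ccn1 -0.07. Since that score includes collagen genes, these values are not separate from the likeness to collagens given below. Thbs1 had 0.38 with the injured tubule score, Smoc2 0.20 with the thick ascending limb score and Ccn1 0.18 with the distal and collecting duct score. The proximal tubule score had values from -0.51 (Sparc) to -0.01 (Ccn1).

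**Figure D5:**
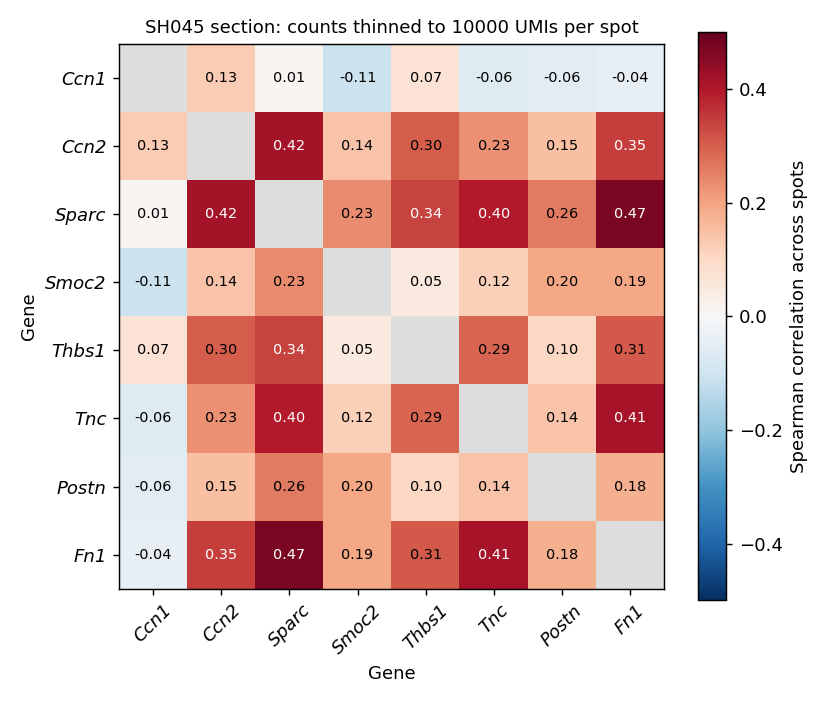
Spearman correlation of each pair of genes over 768 spots of the SH045 section, each thinned to 10000 UMIs. Sparc, Fn1, Tnc and Ccn2 share the highest values, up to 0.47 for Sparc with Fn1, and the row of Ccn1 stays between -0.11 and 0.13.

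Among 3938 other genes, those with the pattern most like each member, by Spearman correlation over 788 spots at 2500 UMIs, included collagens for 4 of the members. Fn1 was most like Col3a1 (0.38), Col6a3 (0.31) and Col1a1 (0.29), Sparc most like Col1a1 (0.38), Col3a1 (0.35) and Mgp (0.34), and Tnc most like Col6a3 (0.30), Col3a1 (0.27) and Lcn2 (0.25). Ccn2 was most like Mgp (0.25), Actb (0.23) and Col1a1 (0.19). Smoc2 was most like Gm42418 (0.24), Dcn (0.21) and Slc14a2 (0.20), a urea transporter of the medulla, and Thbs1 most like Mgp, Aldh1a2 and Krt18 (0.20 each). The next gene in order was a collagen for both, Col3a1 for Smoc2 and Col1a2 for Thbs1 (0.18 each). Ccn1 was most like Ldhb (0.18), Cd74 (0.16) and Gpc3 (0.14). For Postn, with a UMI in 25 of the thinned spots, no likeness could be read.

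The other genes of the same families and pathways gave the setting of the differences between sections. Of 27 other matricellular genes, 15 were measured, that is, reached 10 CPM in either section, and all 15 were higher in the SH045 section (median log2 ratio 2.83), also relative to the median of all genes. Of all genes 53.2% were higher by this mark, with a median log2 ratio of 0.63, and 25.4% relative to that median, so the counts of the lists are to be read against these shares. Spp1, osteopontin, was at 17076 against 754 CPM, while Fbln5, fibulin 5 of elastic fibres, was at 240 against 102 CPM and Tinagl1, a basement membrane glycoprotein, at 176 against 41.6 CPM. Thbs4, of the Thbs1 family, had 424 UMIs with SH045 and none in the other section, at least 27.3-fold higher against a floor of 3 counts per section. Of the 18 receptors measured, mostly integrin chains, 16 were higher and 0 lower, with a median of 1.46, and 12 were higher and 1 lower relative to the median of all genes. Sdc4, a fibronectin co-receptor, was at 781 against 315 CPM, Itgb1 at 539 against 137 CPM and Itgav at 530 against 119 CPM.

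Genes of pathways known to act upstream of the members, with other targets of these pathways, gave similar counts. On the YAP, TEAD and SRF list all 23 measured genes were higher (median log2 ratio 1.79), and 22 relative to the median of all genes. Among them were Nuak2 at 279 against 50.1 CPM, Tagln at 204 against 12.02 CPM and Myl9 at 256 against 134 CPM, the last within 1.5-fold relative to that median. All 18 of the TGF-beta list were higher, with a median of 2.04, and 17 relative to all genes, among them the receptor Tgfbr2 at 204 against 39.7 CPM and its partner Tgfbr1 at 132 against 32.4 CPM. The 16 collagen and matrix partners were all higher by either count, with a median of 3.85, including the proteoglycan Bgn at 1236 against 177 CPM, the basement membrane chain Col4a1 at 1197 against 156 CPM and the fibrillar collagen Col3a1 at 1013 against 17.3 CPM. These lists share genes with the marker lists and were read from the same 2 libraries.

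Markers of the cells known to make these proteins were mostly higher in the SH045 section too. The fibroblast list summed to 3061 CPM (1794 to 5923 over blocks) in the SH045 section and to 111 CPM (76.9 to 135) in the section labelled Vehicle, with 11 of 11 measured genes higher and Lum at 0 in the latter. Smooth muscle and pericyte markers summed to 1026 and 168 CPM with 8 of 8 measured genes higher, macrophage markers to 2307 and 266 CPM with 13 of 13 higher, and endothelium markers to 874 and 592 CPM with 3 of 10 higher and 1 lower. Relative to the median of all genes, 11, 7 and 13 of these genes were higher for the first 3 lists, and 2 higher and 2 lower for endothelium. Urothelium markers summed to 37.1 and 2.08 CPM, and 8 of the 10 were at 0 in the section labelled Vehicle, among them Upk1b, Krt5 and Krt14. The part of cell makeup in the levels of the members was not tested. With the Vehicle spots limited to the 334 with under 10% mitochondrially encoded UMIs, the folds of the members other than Postn ran from 9.46 (Sparc) to 122 (Smoc2), and 48.4% of genes passed the 1.5-fold mark.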

How the data were processed

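The deposited values are raw UMI counts per gene and spot, 1 matrix a section, which the authors made with Space Ranger 2.0.1 per the file headers, on mm10 per the submitters' processing notes. Alignment settings were not stated in the labels. Counts were summed per section, block, zone or region and scaled to 1000000 (CPM). Poisson, conditional binomial and Clopper-Pearson 95% intervals cover counting error only (scipy 1.17.1). A gene was measured at 10 CPM in either section and called at 1.5-fold, with a section at 0 set to 3 counts, which is 0.134 CPM (SH045) or 0.693 CPM (Vehicle). Because 1 section per group leaves no replicate, no test between sections was run. UMI counts were not scaled to gene length, so levels of different genes are not read against each other, save that the rule for named genes uses them. The tissue flag of the section labelled Vehicle marks 1210 spots, 570 of them among its 676 in the matrix, so all 676 were used and the flagged ones tried as an alternative.

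Regions came from scanpy 1.11.5 and leidenalg 0.10.2 (2000 variable genes, 20 components, 15 neighbours, resolution 0.6), each section on its own. Thinning drew 2500 UMIs per spot, leaving out 2 SH045 and 115 Vehicle spots. No doublet caller was run, since a spot is not a cell. TMM factors came from edgeR 4.0.16, used for scaling alone. Calls, fold intervals, Moran's I and thinning were tested on simulated data. Named genes are the 8 members, the 3 of highest level of each context list, the 3 most like each member and the 3 leading each region. Thbs4, Havcr1, Podxl, Pecam1, Lum, Gp9, Treml1, Ppbp, Krt5 and Upk1b, where named, were chosen after their values were seen. A few genes that this rule would name are not reported here. Members and lists were chosen with earlier results of these data known. Images and scale factors were not used.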

Additional observations from a re-analysis of the deposited data

How the results depend on the processing

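No paired analysis was possible because each group holds 1 section, and for the same reason no replicate could be left out. All 8 members were higher in the SH045 section by 1.5-fold or more with TMM or median-of-ratios scaling, with a 5 CPM minimum, at 2-fold, and with the other choices of spots and totals tried, except that 7 of 7 measured members were at a 50 CPM minimum and 7 of 8 in the podocyte-led regions. The median log2 ratio of the members, 4.73, was 4.19 with TMM scaling, which moved the median of all genes from 0.63 to 0.03, and 4.12 with median-of-ratios scaling, which moved it to -0.05. It was 3.86 with a pseudocount of 10 CPM and 3.45 in the podocyte-led regions, and between 4.33 and 5.04 under the other alternatives. No member changed direction under any of the 10 alternatives computed for single genes. The median share of SH045 spots with a UMI of a member, 59.8% at 2500 UMIs, was 30.5% at 1000 and 80.3% at 5000 UMIs per spot. The median correlation over the 28 pairs, 0.07, was 0.12 at 5000 UMIs and 0.19 at 10000 UMIs. The ratio of highest to lowest region, a median of 4.11 over members, was 5.45 at resolution 1.0 and 4.94 with the members kept in the clustering. The limit to 10000 UMIs, the podocyte-led regions and the limit on mitochondrially encoded UMIs were chosen after the data were seen. Depth limits the section labelled Vehicle most, where Smoc2 rests on 5 UMIs and Postn on 1.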
